A study of Mus musculus with 13 samples.

Results

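Chemokine ligands and receptors were taken from the gluteal white adipose tissue (WAT) RNA-seq table by symbol: *Ccl*, *Cxcl*, *Ccr* or *Cxcr* followed by a digit, together with *Cx3cl1*, *Cx3cr1*, *Xcl1*, *Xcr1* and the atypical receptors *Ackr1* to *Ackr4*. *Ccrl2*, *Ccl21a*, *Cxcl13* and genes with a pseudogene symbol were left out. *Cxcl11*, annotated as a polymorphic pseudogene, has no such symbol and was kept. Of the 34419 genes in the table, 57 are described here: 35 ligands, 18 signalling receptors and 4 atypical receptors. The tissue came from male C57BL/6J mice that were kept from birth until 13 weeks of age either at 22°C (7 libraries) or at 29°C (6 libraries), the latter being thermoneutral for mice. Insulation was kept low in both groups: cages held 1 mouse with sparse bedding and nothing to build a nest from, and fur of the hind body was removed chemically. The comparison asks how gene expression in a subcutaneous depot differs between mice kept at room temperature and at thermoneutrality. Whole depots were used, so the RNA holds every cell type of the tissue.

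Chemokines are small secreted proteins that direct the movement of leukocytes by binding G protein-coupled receptors on their surface. They are named CC, CXC, C or CX3C after the spacing of their first cysteines, and most receptors bind several ligands. Atypical receptors bind chemokines without G protein signalling and clear or transport them. In adipose tissue, CCL2 and its relatives draw CCR2-bearing monocytes from the blood, stromal cells make CXCL12, and interferon-γ induces the CXCR3 ligands CXCL9, CXCL10 and CXCL11.

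Library totals lay between 22356637 and 25245785 counts, and a count of 0 allowed up to 0.113 to 0.158 CPM (counts scaled to TMM-adjusted library size), taking 3 counts as the limit, which covers counting error only. The totals fell apart into 5 libraries, all at 22°C, of at most 22857079 counts and 8 libraries (2 at 22°C and all 6 at 29°C) of at least 24821549 counts. The labels give no reason for this gap, and for the 5 libraries it cannot be told apart from temperature, so fold changes within the 8 higher-total libraries are plotted against those over all 13, and are given in the text for every gene whose log2 fold change moved by over 0.3. The 8 adipocyte markers summed to between 22900 and 36280 CPM in the 13 libraries. Skeletal muscle markers varied far more, with sums of 757 to 82280 CPM at 22°C, against 148 to 6573 CPM at 29°C. All 12 had positive log2 fold changes (22°C relative to 29°C), with a median of 2.97, and none passed P-adj below 0.1. In edgeR 6 of the 12 (50%) had an unadjusted p below 0.05, against 18.5% of all genes tested. Within the 8 higher-total libraries all 12 were positive, with a median of 3.60.

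Genes of NF-κB and interferon signalling were among those counted, so the promoters of 4 ligands are shown. Each is the RefSeq window from 250 bases before to 50 after the annotated start on GRCm38.p6, read 5′ to 3′ on the gene's own strand. Capitals mark matches on either strand to 3 patterns: GAAA and again GAAA with 2 bases between (interferon-stimulated response element), TTC and GAA with 3 bases between (gamma-activated site), or GGGA and TTCC with 2 bases between (κB site). The windows lie at chr5:90890995-90891294, plus strand for *Cxcl1*, chr5:92328030-92328329, minus strand for *Cxcl9*, chr5:92348840-92349139, minus strand for *Cxcl10* and chr13:56296502-56296801, minus strand for *Cxcl14*.
Cxcl1: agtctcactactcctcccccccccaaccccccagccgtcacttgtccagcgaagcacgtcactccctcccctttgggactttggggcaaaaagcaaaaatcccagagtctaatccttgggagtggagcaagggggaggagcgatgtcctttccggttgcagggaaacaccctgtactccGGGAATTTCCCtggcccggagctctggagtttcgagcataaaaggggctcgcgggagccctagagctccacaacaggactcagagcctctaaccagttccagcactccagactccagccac
Cxcl9: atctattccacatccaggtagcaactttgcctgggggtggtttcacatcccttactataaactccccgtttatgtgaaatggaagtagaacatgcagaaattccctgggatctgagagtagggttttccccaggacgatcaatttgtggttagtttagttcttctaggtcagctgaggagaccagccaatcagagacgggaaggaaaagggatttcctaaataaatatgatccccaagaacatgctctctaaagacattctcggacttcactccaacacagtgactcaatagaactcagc
Cxcl10: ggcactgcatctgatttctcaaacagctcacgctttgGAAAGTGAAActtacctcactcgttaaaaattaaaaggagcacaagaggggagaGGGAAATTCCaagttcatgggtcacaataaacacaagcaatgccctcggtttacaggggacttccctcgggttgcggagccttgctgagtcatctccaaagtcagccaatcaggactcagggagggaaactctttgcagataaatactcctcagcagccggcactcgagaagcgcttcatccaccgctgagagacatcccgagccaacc
Cxcl14: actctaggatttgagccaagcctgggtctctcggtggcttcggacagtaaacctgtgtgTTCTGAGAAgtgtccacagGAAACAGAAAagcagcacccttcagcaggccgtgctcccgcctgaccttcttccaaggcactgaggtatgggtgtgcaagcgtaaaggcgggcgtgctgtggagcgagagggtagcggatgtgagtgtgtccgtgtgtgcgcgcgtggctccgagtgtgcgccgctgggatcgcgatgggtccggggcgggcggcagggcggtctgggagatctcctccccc

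*Cxcl1* held the κB letters as GGGAATTTCC, which overlap GGAATTTCCC shifted by a base, the pattern read on the other strand. *Cxcl10* held GAAAGTGAAA and GGGAAATTCC, *Cxcl14* held TTCTGAGAA and GAAACAGAAA, and *Cxcl9* held none of the 3 patterns in its window. RefSeq windows were found for 43 of the 57 genes, 50 windows in all, and the promoter table had none for *Cxcl11*. The κB letters were in 6 of the 50 windows (12%; *Ccl1*, *Ccr3*, *Cxcl1*, *Cxcl2*, *Cxcl3* and *Cxcl10*) and in 1.47% of all 32851 windows of this length. The interferon-stimulated response element was in 3 of the 50 (6%; *Ccl19*, *Cxcl10* and *Cxcl14*) against 3.44% of all windows. The gamma-activated site was in 4 of the 50 (8%; *Ccl17*, *Ccr1l1*, *Ccr6* and *Cxcl14*) against 8.3%. These are matches of letters, not measured binding.

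After the filter on low counts, 35 of the 57 genes were tested: 22 ligands, 9 receptors and the 4 atypical receptors. None of the 35 passed P-adj below 0.1 in edgeR, where 1.94% of all 17779 genes tested did. *Cxcl11* alone had an unadjusted p below 0.05. That is 1 of 35 (2.86%), where 18.5% of all genes tested had such a p. Its level was lower at 22°C, the direction of 8.2% of all genes tested at that unadjusted p. The CPM of the temperatures overlapped for each of the 35, while they did not overlap for 1.24% of all genes tested. The 35 were measured less precisely, with a median SE of 0.216 against 0.134 over all genes tested. Their median absolute log2 fold change was 0.181, against 0.143, so the smaller shares do not show that these genes differed less. DESeq2, run in place of edgeR, called none of the 28 genes to which it gave an adjusted p, where it called 10.2% of all genes. Its unadjusted p was below 0.05 for 2 of them, *Cxcl11* and *Ccl7*.

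Of the 35 log2 fold changes (22°C relative to 29°C, called estimates from here on), 22 were negative and 13 positive, with a median of −0.09. Over all genes tested, 48.4% were negative and the median was 0.01. Among ligands 16 of 22 were negative, among receptors 4 of 9, and among atypical receptors 2 of 4. The signs were the same with DESeq2 size factors in place of TMM, but 16 of the 35 turned when the library-total cluster was a covariate and 15 turned within the 8 higher-total libraries. The 95% interval of the fold change lay inside a 2-fold change either way for 30 of the 35 genes, and inside 1.5-fold for 15. Over all 17779 genes tested it lay inside 2-fold for 15207 and inside 1.5-fold for 11246. These intervals bound the size of any difference that 7 and 6 libraries leave room for. They do not show that the genes were equal at the 2 temperatures.

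**Figure D1:**
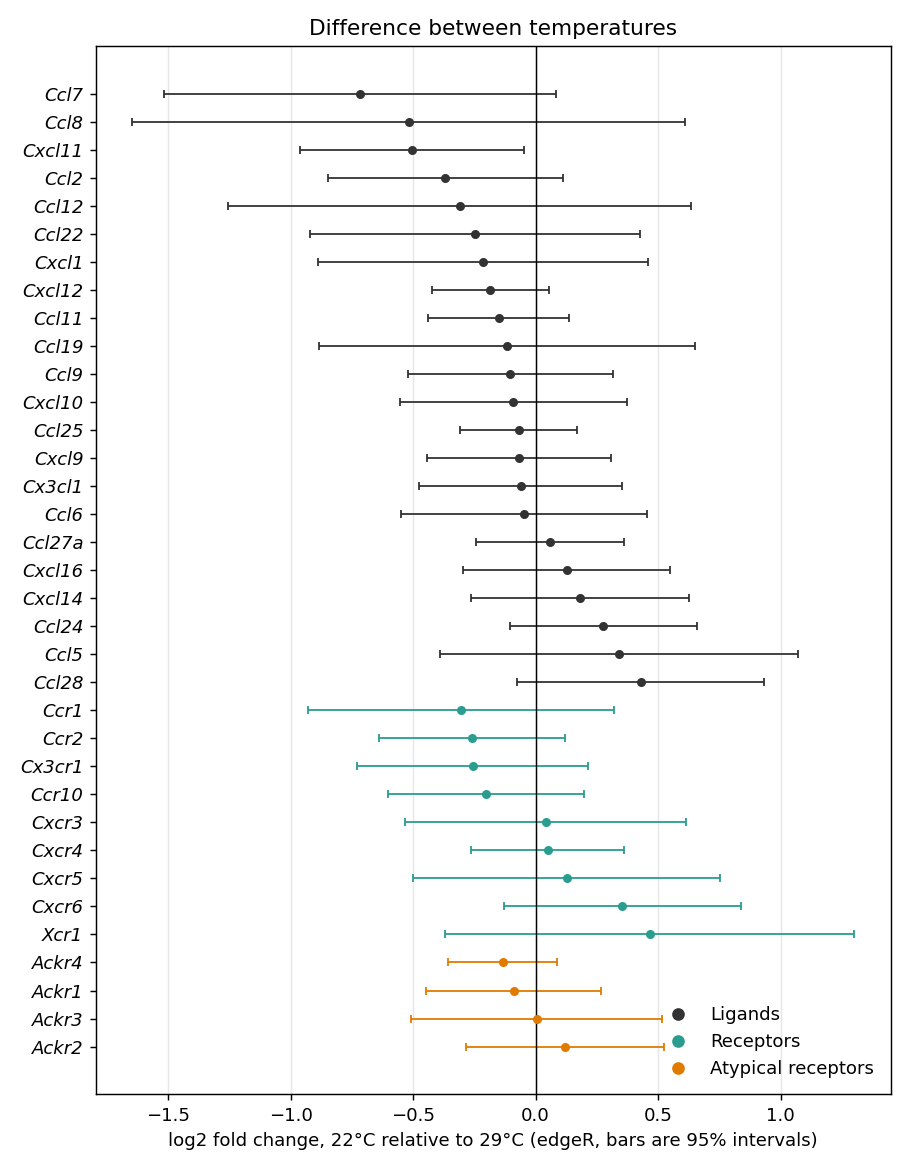
The log2 fold change at 22°C relative to 29°C (x axis) of each of the 35 tested chemokine ligands (dark), receptors (green) and atypical receptors (orange), with 95% intervals from edgeR as bars. Only the interval of *Cxcl11* (−0.96 to −0.05) leaves out 0.

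Levels of different genes are compared only as CPM per kilobase of exon, with exon lengths from GENCODE M21 on GRCm38. On that scale the highest ligands were *Ccl8*, *Ccl6* and *Ccl11*. *Ccl8*, of the monocyte chemoattractant protein family, stood at 49.7 ± 24.2 CPM per kilobase at 22°C and 71.2 ± 64.0 at 29°C (mean ± SD, n = 7 and 6). *Ccl6*, a CC ligand of rodents made by macrophages, stood at 58.0 ± 14.6 and 60.0 ± 21.0, and *Ccl11*, the eosinophil attractant eotaxin, at 52.2 ± 9.46 and 58.0 ± 9.67. These first 3 did not differ from each other beyond their spread.

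Next came *Cxcl14* (26.2 ± 6.87 at 22°C and 23.1 ± 6.34 at 29°C), *Ackr3* (21.6 ± 7.04 and 21.6 ± 6.47), *Cxcl12* (19.4 ± 3.07 and 22.0 ± 2.69) and *Ccl9* (17.0 ± 3.80 and 18.3 ± 5.12), again in CPM per kilobase. Their ranges of 1 SD overlapped one another and did not reach those of *Ccl6* and *Ccl11*. *Ackr3*, a scavenger of CXCL12, was thus the highest receptor of any kind. Signalling receptors were lower. *Ccr2* led them at 2.53 ± 0.592 and 3.03 ± 0.718, next to *Cxcr4* at 2.50 ± 0.532 and 2.42 ± 0.265. *Cx3cr1*, the fractalkine receptor of macrophages (0.128 ± 0.0272 and 0.153 ± 0.0463), and *Xcr1*, a receptor of cross-presenting dendritic cells (0.127 ± 0.0550 and 0.0925 ± 0.0478), were the lowest of the tested receptors and did not differ beyond their spread.

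**Figure D2:**
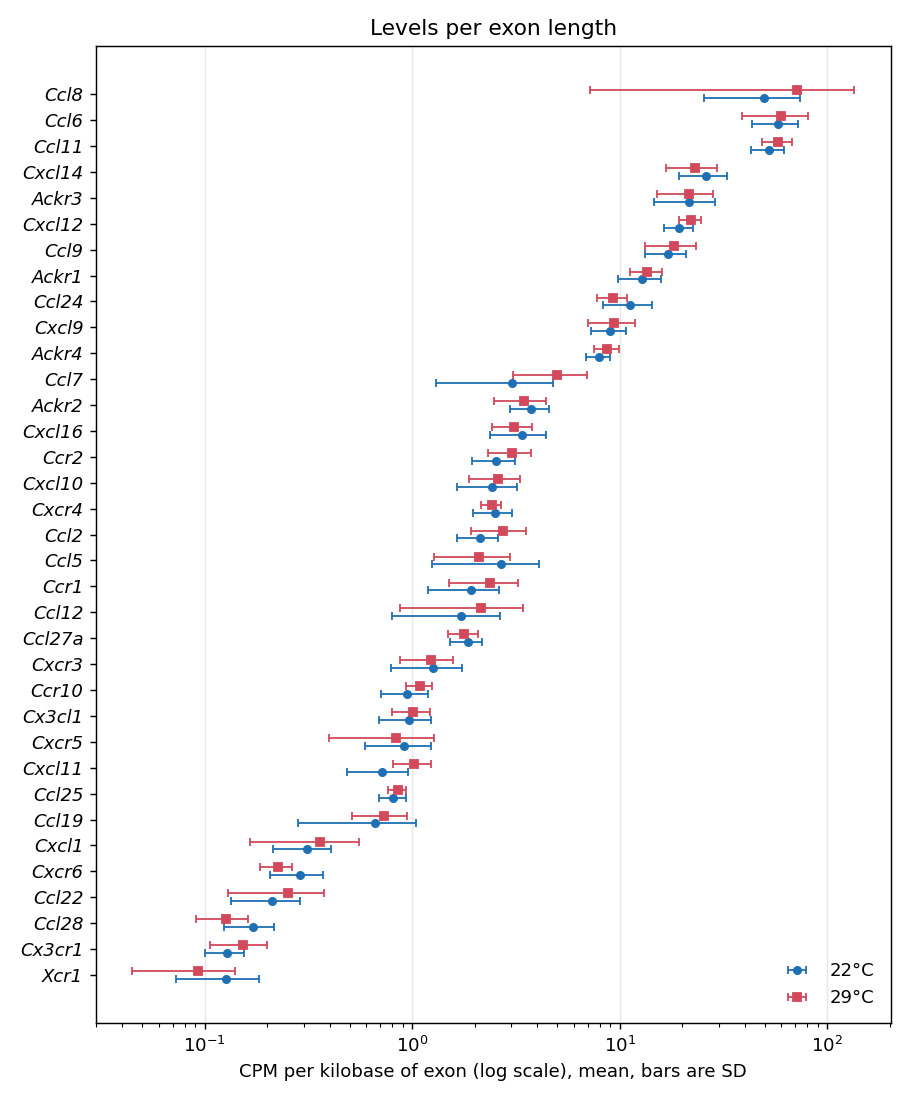
Mean CPM per kilobase of exon (x axis, log scale) of the 35 tested genes at 22°C (blue circles, n = 7) and 29°C (red squares, n = 6), with SD as bars and genes ordered by level. *Ccl8*, *Ccl6* and *Ccl11* stand at the top and *Cx3cr1* and *Xcr1* at the bottom.

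The other 22 genes did not pass the filter on low counts, and their counts are given as the highest in any library. Neutrophil-directed CXC ligands were near 0: *Cxcl5* and *Cxcl3* reached 1 count, *Cxcl15* 2 and *Cxcl2* 5. Of the other ligands, *Ccl27b* reached 1 count, *Ccl1*, *Ccl20* and *Cxcl17* 2, *Ccl26* 3, *Ccl17* 5, *Ccl3* 7, *Ccl4* 12 and *Xcl1* 17. Of the receptors, *Ccr1l1* reached 1 count, *Ccr8* 2, *Cxcr1* 4, *Ccr6* 6, *Ccr4* and *Ccr9* 11, *Ccr3* 13, *Cxcr2* 18 and *Ccr7* 31. *Ccr7*, which guides lymphocytes and dendritic cells into lymph nodes, was seen in all 13 libraries. In a fit with no filter on low counts none of the 57 genes was called, and *Ccl26* (P-adj = 0.321, edgeR) and *Ccl17* (P-adj = 0.370) joined *Cxcl11* at an unadjusted p below 0.05. *Ccl26* had 0 to 1 count at 22°C and 0 to 3 at 29°C, and *Ccl17* 1 to 5 counts at 22°C and 0 to 2 at 29°C.

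Among inflammatory CC ligands, 7 of 9 tested genes had negative estimates, with a median of −0.15. *Ccl6* spanned 67.9 to 140 CPM (median 109.9) at 22°C, against 58.2 to 154 CPM (median 112.5) at 29°C. Its estimate was −0.05 (SE 0.23; P-adj = 0.938, edgeR), and the ranges overlapped over most of their length. *Ccl11* spanned 39.1 to 68.9 CPM (median 57.3) at 22°C, against 51.1 to 77.9 CPM (median 61.5) at 29°C, giving an estimate of −0.15 (SE 0.13; P-adj = 0.583) over all libraries and −0.01 (SE 0.17) within the 8 higher-total ones. At 22°C 2 libraries were under all of those at 29°C. *Ccl9*, which like *Ccl6* comes mainly from myeloid cells, spanned 36.0 to 67.1 CPM (median 51.3) at 22°C, against 33.0 to 71.6 CPM (median 62.3) at 29°C, giving an estimate of −0.10 (SE 0.19; P-adj = 0.813).

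*Ccl8* varied most of the 35, with a coefficient of variation of 77.3% over the 13 libraries. It spanned 6.11 to 43.6 CPM (median 27.6) at 22°C, against 13.3 to 92.6 CPM (median 19.6) at 29°C. At 29°C replicates 1 (92.6 CPM) and 4 (59.7 CPM) lay above every library at 22°C, while replicates 2, 3 and 5 stood between 13.3 and 15.6 CPM. The estimate of −0.52 (SE 0.52; P-adj = 0.639) became 0.02 without replicate 1 at 29°C and −0.25 (SE 0.80) within the 8 higher-total libraries. The same library held the highest sum of 14 macrophage markers (1609 CPM), and the library with the least *Ccl8*, replicate 1 at 22°C, held the lowest (751 CPM). That library was also the lowest in 9 of the 17 gene lists counted and in 8 of the 35 chemokine genes, and its skeletal muscle markers summed to 59880 CPM. Replicate 7 at 22°C had a larger muscle sum (82280 CPM), with *Ccl8* at 29.5 CPM and a macrophage sum of 1192 CPM. With the macrophage score as a covariate the log2 fold change of *Ccl8* was 0.04 (SE 0.31). In bulk tissue, fewer cells of a type and less RNA per cell cannot be told apart.

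The monocyte attractants *Ccl7*, *Ccl2* and *Ccl12* had group means of 1.72 to 5.02 CPM per kilobase, all below *Ccl8*. *Ccl7* spanned 1.001 to 4.69 CPM (median 1.63) at 22°C, against 2.03 to 5.76 CPM (median 4.16) at 29°C. It had the most negative estimate of the 35, −0.72 (SE 0.37; P-adj = 0.322), and 4 of 7 libraries at 22°C lay below all those at 29°C, though replicate 2 at 22°C reached 4.69 CPM. Within the 8 higher-total libraries the estimate was −0.76 (SE 0.46). *Ccl2*, the main ligand of CCR2, spanned 1.45 to 2.999 CPM (median 2.58) at 22°C, against 1.49 to 4.21 CPM (median 3.18) at 29°C. Its estimate was −0.37 (SE 0.22; P-adj = 0.398), with 4 of 6 libraries at 29°C above all 7 at 22°C, and −0.28 (SE 0.34) within the 8. *Ccl12* had an estimate of −0.31 (SE 0.44), or −0.46 (SE 0.66) within the 8. Genes of this cluster are alike in sequence, and how reads shared between them were counted is not given in the sources used here.

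*Ccl24*, another eotaxin, and *Ccl5*, made by T and NK cells, were the inflammatory CC ligands with positive estimates. *Ccl24* spanned 8.64 to 19.4 CPM (median 14.9) at 22°C, against 8.57 to 14.0 CPM (median 12.8) at 29°C, giving an estimate of 0.28 (SE 0.18; P-adj = 0.428) over all libraries and 0.51 (SE 0.19) within the 8 higher-total ones. *Ccl5* had an estimate of 0.34 (SE 0.34; P-adj = 0.634) that became −0.11 (SE 0.45) within the 8. The summed T and NK cell markers were highest in replicate 2 at 22°C (22.9 CPM), which also had the most *Ccl5* (5.03 CPM). Of the 11 such markers tested, 10 had positive estimates, and *Cd3e* of the T cell receptor complex was called higher at 22°C (log2 fold change 1.78, SE 0.42; P-adj = 0.0817). Its level was low, at 1.04 ± 0.553 CPM at 22°C and 0.297 ± 0.166 CPM at 29°C. *Cd3g* (0.25, SE 0.36) and *Trac* (0.66, SE 0.48) of the same complex were not called. Within the 8 higher-total libraries 5 of the 11 markers were positive and 6 negative, and *Cd3e* had 1.41 (SE 0.55). With the lymphocyte score as a covariate the log2 fold change of *Ccl5* was 0.11 (SE 0.33; P-adj = 0.912).

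Of 5 homeostatic and T cell-directed CC ligands, 3 had negative estimates, with a median of −0.07, and all had group means between 0.126 and 1.85 CPM per kilobase. *Ccl25*, which guides thymocytes and gut lymphocytes through CCR9, spanned 5.07 to 7.64 CPM (median 6.02) at 22°C, against 5.64 to 7.29 CPM (median 6.30) at 29°C. It was the steadiest of the 35, with a coefficient of variation of 12.6% and an estimate of −0.07 (SE 0.11; P-adj = 0.780). *Ccl27a*, a skin chemokine, spanned 3.62 to 5.59 CPM (median 4.35) at the cooler temperature, against 3.48 to 5.31 CPM (median 4.29) at the warmer one, giving an estimate of 0.06 (SE 0.14; P-adj = 0.855). *Ccl28*, its mucosal relative, spanned 0.423 to 1.12 CPM (median 0.805) at the cooler temperature, against 0.463 to 0.822 CPM (median 0.552) at the warmer one, giving an estimate of 0.43 (SE 0.23; P-adj = 0.351) that was 0.78 (SE 0.31) within the 8 higher-total libraries. In each of these 3 the groups overlapped. *Ccl19* (−0.12, SE 0.36) and *Ccl22* (−0.25, SE 0.31) had wide errors and turned to 0.29 (SE 0.49) and 0.11 (SE 0.49) within the 8, and *Ccl19* and *Ccl27a* have near-identical copies in the mouse genome that can share their reads.

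Of the interferon-induced CXC ligands all 3 had negative estimates, with a median of −0.09. *Cxcl9* spanned 18.5 to 31.9 CPM (median 30.4) at 22°C, against 16.7 to 35.3 CPM (median 29.6) at 29°C. Its estimate was −0.07 (SE 0.18; P-adj = 0.871) and the ranges overlapped over most of their length. *Cxcl10* spanned 3.66 to 8.98 CPM (median 5.16) at 22°C, against 4.29 to 7.87 CPM (median 5.16) at 29°C, giving an estimate of −0.09 (SE 0.22; P-adj = 0.856). Within the 8 higher-total libraries the estimate of *Cxcl9* was −0.43 (SE 0.28) and that of *Cxcl10* −0.41 (SE 0.29). *Cxcl10* carried the printed response element and κB letters and *Cxcl9* neither, and neither gene was called.

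*Cxcl11* (ENSMUSG00000060183.7) spanned 1.69 to 4.07 CPM (median 2.77) at 22°C, against 2.90 to 5.29 CPM (median 3.79) at 29°C. At 22°C 4 of 7 libraries lay below all at 29°C, and at 29°C only replicate 2 lay above all at 22°C. The estimate was −0.50 (SE 0.21, 95% interval −0.96 to −0.05; P-adj = 0.229, edgeR). The 5 lower-total libraries at 22°C stood between 1.69 and 3.52 CPM and the 2 higher-total ones at 3.01 and 4.07 CPM, and within the 8 higher-total libraries the estimate was −0.14 (SE 0.24). *Cxcl11* is annotated as a polymorphic pseudogene in GENCODE M21, so its RNA level does not show that a working ligand was made. Its counts are uncertain too, as 41.7% of its exon bases are shared with *Gm2673*. Without it, 0 of 34 genes had an unadjusted p below 0.05 in edgeR.

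*Cxcl12*, which retains stem cells and lymphocytes through CXCR4, spanned 121 to 199.5 CPM (median 153.5) at 22°C, against 152 to 218 CPM (median 179) at 29°C. Its estimate was −0.18 (SE 0.11; P-adj = 0.395), a difference inside the spread, and became 0.06 (SE 0.13) within the 8 higher-total libraries. At 22°C those 2 libraries, replicates 6 and 7, held the most *Cxcl12* of their group (178 and 199.5 CPM). *Cxcl14*, made by fibroblasts and epithelium, spanned 31.8 to 69.0 CPM (median 45.9) at the cooler temperature, against 23.5 to 51.0 CPM (median 48.2) at the warmer one, giving an estimate of 0.18 (SE 0.21; P-adj = 0.685). *Cxcl16*, a membrane-bound ligand and scavenger receptor of macrophages, spanned 6.69 to 14.7 CPM (median 9.41) at the cooler temperature, against 7.04 to 12.9 CPM (median 8.84) at the warmer one, giving an estimate of 0.13 (SE 0.20; P-adj = 0.772). In both, the groups overlapped.

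The single tested neutrophil attractant, *Cxcl1*, spanned 0.317 to 0.848 CPM (median 0.634) at 22°C, against 0.387 to 1.39 CPM (median 0.601) at 29°C, giving an estimate of −0.22 (SE 0.31; P-adj = 0.756). Replicate 4 at 29°C alone lay above all others. *Cx3cl1*, the membrane-tethered fractalkine of endothelium, spanned 2.54 to 5.36 CPM (median 3.77) at the cooler temperature, against 3.16 to 5.32 CPM (median 3.83) at the warmer one, giving an estimate of −0.06 (SE 0.19; P-adj = 0.895) that was 0.24 (SE 0.23) within the 8 higher-total libraries. Neither gene separated the temperatures.

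**Figure D3:**
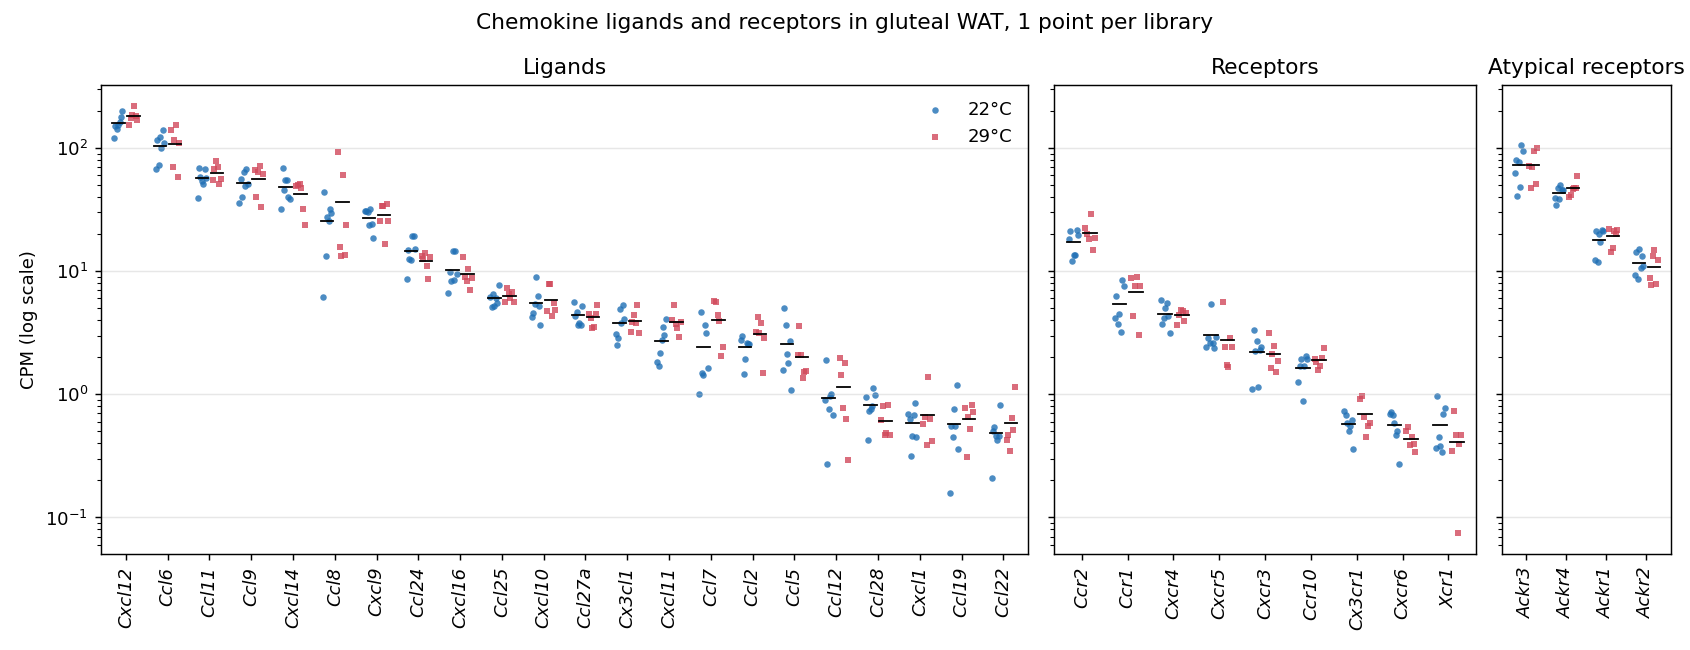
CPM (y axis, log scale) of the 35 tested genes in each library at 22°C (blue circles, 7) and 29°C (red squares, 6), with horizontal lines at the group means, in panels for ligands, receptors and atypical receptors. The points of the 2 temperatures overlap for every gene, and *Ccl8* spans the widest range, from 6.11 to 92.6 CPM.

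The 3 tested CC receptors all had negative estimates, with a median of −0.26. *Ccr2*, the receptor of inflammatory monocytes, spanned 12.1 to 21.6 CPM (median 18.2) at 22°C, against 14.8 to 29.0 CPM (median 19.3) at 29°C. Its estimate was −0.26 (SE 0.18; P-adj = 0.455) over all libraries and −0.0002 (SE 0.22) within the 8 higher-total ones. *Ccr1*, a myeloid receptor of inflammatory CC ligands, spanned 3.22 to 8.48 CPM (median 4.49) at 22°C, against 3.05 to 8.91 CPM (median 7.60) at 29°C. Its estimate of −0.31 (SE 0.29; P-adj = 0.615) became 0.25 (SE 0.39) within the 8. *Ccr10*, the receptor for CCL27 and CCL28, spanned 0.881 to 2.04 CPM (median 1.70) at 22°C, against 1.59 to 2.36 CPM (median 1.87) at 29°C, giving an estimate of −0.20 (SE 0.19; P-adj = 0.604). CC receptor genes are alike in sequence, so the split of shared reads among them is uncertain.

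Macrophages and T cells carry most of these receptors. Of 14 macrophage markers 5 had positive and 9 negative estimates, with a median of −0.12 and none called, while within the 8 higher-total libraries 10 were positive and 4 negative, with a median of 0.14. They summed to 751 to 1527 CPM at 22°C, against 838 to 1609 CPM at 29°C. T and NK cell markers summed to between 7.76 and 22.9 CPM at 22°C and between 5.20 and 12.3 CPM at 29°C. No receptor was called with the marker scores as covariates or without them. Those calls therefore cannot show what part these cells had in the receptor values.

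Of the 6 tested CXC, C and CX3C receptors 5 had positive estimates, with a median of 0.09. *Cxcr4* spanned 3.17 to 5.85 CPM (median 4.35) at 22°C, against 3.69 to 4.87 CPM (median 4.49) at 29°C, giving an estimate of 0.05 (SE 0.14; P-adj = 0.889). *Cxcr3*, the T cell receptor for the interferon-induced CXC ligands, spanned 1.11 to 3.34 CPM (median 2.27) at the cooler temperature, against 1.53 to 3.15 CPM (median 1.99) at the warmer one, giving an estimate of 0.04 (SE 0.27; P-adj = 0.953). In both, the range at 22°C held the values at 29°C. *Cxcr6* (0.35, SE 0.22), *Xcr1* (0.47, SE 0.39) and *Cx3cr1* (−0.26, SE 0.22) stood under 1 CPM in every library. Within the 8 higher-total libraries *Cxcr6* turned to −0.17 (SE 0.36) and *Xcr1* was at 0.81 (SE 0.59).

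*Cxcr5*, which takes B cells into follicles, spanned 2.39 to 5.41 CPM (median 2.63) at 22°C, against 1.66 to 5.60 CPM (median 2.42) at 29°C, giving an estimate of 0.13 (SE 0.29; P-adj = 0.850). Its highest libraries were replicate 4 at 22°C and replicate 1 at 29°C. The 9 B cell markers also summed highest there, to 36.7 and 24.7 CPM, against 1.62 to 22.4 CPM in the other libraries. All 8 of these markers that were tested had positive estimates and none was called, while within the 8 higher-total libraries 3 were positive and 5 negative. With the lymphocyte score as a covariate the log2 fold change of *Cxcr5* was −0.11.

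Over all libraries the 4 atypical receptors had 95% intervals inside 1.5-fold, as did 11246 of all 17779 genes tested. *Ackr3* spanned 40.6 to 104.7 CPM (median 76.2) at 22°C, against 47.2 to 99.2 CPM (median 70.6) at 29°C, giving an estimate of 0.00 (SE 0.24; P-adj = 0.995). It was 0.46 (SE 0.28) within the 8 higher-total libraries and 0.47 (SE 0.30) with the library-total cluster as a covariate, and was called in neither. The highest of the 13 libraries held 2.58 times the lowest, and both were at 22°C. *Ackr4*, which clears CCL19 and CCL25, spanned 34.1 to 49.7 CPM (median 45.1) at the cooler temperature, against 40.0 to 58.9 CPM (median 46.9) at the warmer one, giving an estimate of −0.13 (SE 0.10; P-adj = 0.525). *Ackr1*, the chemokine receptor of venular endothelium and red blood cells, spanned 11.9 to 21.5 CPM (median 19.93) at the cooler temperature, against 14.4 to 22.2 CPM (median 20.6) at the warmer one, giving an estimate of −0.09 (SE 0.17; P-adj = 0.810). *Ackr2*, a scavenger of inflammatory CC ligands, had an estimate of 0.12 (SE 0.19; P-adj = 0.773). The 7 red blood cell markers summed to 287 to 757 CPM at 22°C, against 320 to 3377 CPM at 29°C, with none called, and their part in *Ackr1* was not tested. In *Ackr1* 25.7% of exon bases are shared with *Cadm3*, so reads may be split between them.

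Ligands were next set beside their receptors. Per kilobase, *Cxcl12* and its scavenger *Ackr3* stood at like levels and the signalling receptor *Cxcr4* far below both, and for none of the 3 was the difference between temperatures larger than the spread between libraries. *Ccl2*, *Ccl7* and *Ccl12* and the receptor *Ccr2* all had negative estimates over all libraries, while that of *Ccr2* lay at 0 within the 8 higher-total libraries. *Ccl8*, also negative, is not set beside a receptor here. The eotaxins *Ccl11* and *Ccl24* were both tested, whereas their receptor *Ccr3*, a mark of eosinophils, did not pass the filter. *Cxcl16* had 0.13 and its receptor *Cxcr6* 0.35 over all libraries, but 0.35 and −0.17 within the 8 higher-total ones. *Ccl25* and *Ccl19* likewise passed the filter, and their receptors *Ccr9* and *Ccr7* did not.

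**Figure D4:**
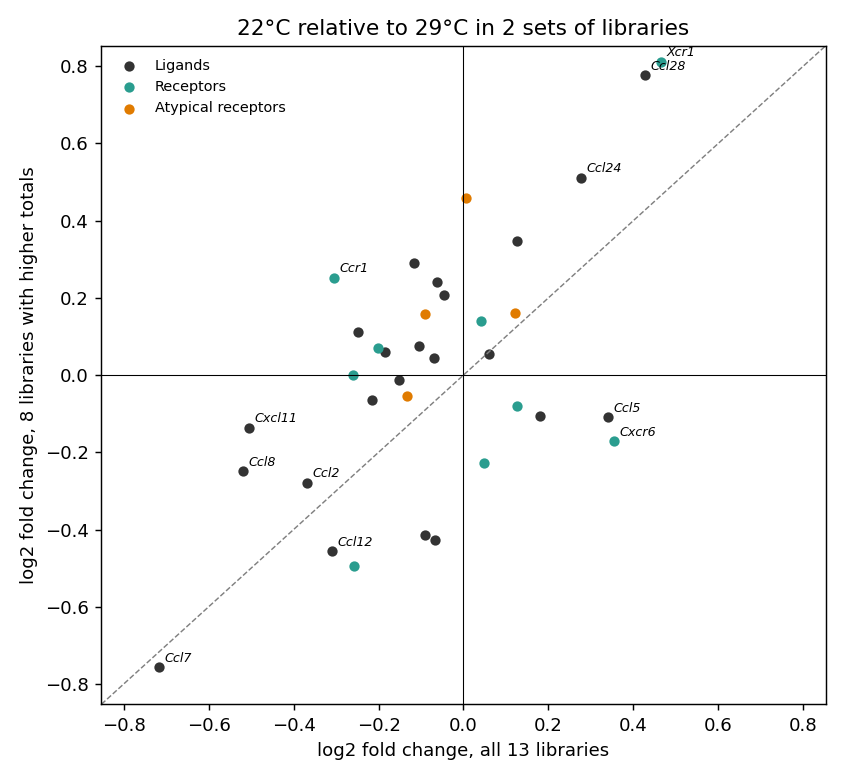
The log2 fold change at 22°C relative to 29°C over all 13 libraries (x axis) and over the 8 libraries with higher totals (y axis), 1 point per tested gene, coloured as ligand, receptor or atypical receptor. The dashed line marks equal values. Points left of the vertical and above the horizontal line, such as *Ccr1* (−0.31 and 0.25), turned direction, whereas *Ccl7* stayed negative.

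Genes that act below the receptors or above the ligands were counted over whole lists. Of 40 tested receptor signalling genes 15 had positive and 25 negative estimates, with a median of −0.06, and 2 (5%) were called, against 1.94% of all genes tested. *Grk3*, a kinase that desensitizes CXCR4 and other receptors, was higher at 22°C (11.2 ± 2.49 against 6.02 ± 1.16 CPM; log2 fold change 0.89, SE 0.17; P-adj = 0.0486, edgeR), with 0.70 (SE 0.23) within the 8 higher-total libraries. *Tiam1*, which activates RAC in migrating cells, was lower at 22°C (16.4 ± 2.05 against 22.4 ± 3.17 CPM; log2 fold change −0.45, SE 0.11; P-adj = 0.0854), with −0.54 (SE 0.19) within the 8. Those with the most reads, *Cdc42* (−0.17), *Gnai2* (−0.19) and *Rhoa* (−0.11), were not called.

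The list around chemokine induction held 17 tested genes. They were the cytokine *Il4*, cytokine receptors, the NF-κB, STAT and IRF factors and the NF-κB inhibitor *Nfkbia*. Of the 17, 11 had negative estimates and none was called, while 4 had an unadjusted p below 0.05 (23.5%, against 18.5% of all genes tested). All 4 were negative, where 8.2% of all genes tested were negative at that p: *Stat2* (−0.38, SE 0.11; P-adj = 0.118), *Irf9* (−0.32, SE 0.09; P-adj = 0.116), *Stat6* (−0.24, SE 0.08; P-adj = 0.174) and *Tnfrsf1a* (−0.17, SE 0.08; P-adj = 0.262). STAT2 and IRF9 belong to the factor that binds the interferon-stimulated response element. Within the 8 higher-total libraries the estimates of the 4 genes named lay between −0.29 and −0.19. *Ifngr1*, which has the most reads of the list, had −0.12 (SE 0.17; P-adj = 0.757). The platelet chemokines *Pf4* (−0.02, SE 0.19) and *Ppbp* (−1.57, SE 0.79; P-adj = 0.309), which the symbol rule leaves out, were not called either.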

How the data were processed

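RNA of gluteal WAT was sequenced on an Illumina platform. Per the submitters' processing notes, the authors used FastQC, STAR 2.7.5a, featureCounts, DESeq2 and the GRCm39 build, while the paper's text names mm10. The authors deposited raw counts per gene and regularized log2 values of the same genes in 13 libraries. The annotation, the strand setting and the handling of shared reads are not given in the sources used here, so counts of overlapping genes and paralogs are uncertain. Symbols were matched by Ensembl identifier for 34006 of 34419 genes. Libraries were grouped by the temperature in their titles. The labels do not say that each library is 1 mouse, so p-values measure the spread between libraries. No library repeated another, as the lowest chi-square per gene over 78 pairs was 17.1.

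Counts were tested in edgeR 4.0.16 (R 4.3.3) with TMM, filterByExpr, the quasi-likelihood F test and Benjamini-Hochberg adjustment over 17779 genes, without covariate, with P-adj below 0.1 as the threshold. Fold changes are log2, 22°C relative to 29°C. SE is the estimate over the square root of F, and 95% intervals use the fitted degrees of freedom. CPM use TMM-scaled totals. Marker scores are mean log2 CPM with a prior count of 2. The fit was tested on simulated counts. Alternatives were DESeq2 1.42.0, its size factors, 2 other filters, a robust fit, a replicate block, each library left out, the library-total cluster as a covariate or the 8 higher-total libraries alone, 3 marker scores as covariates, limma 3.58.1 on the deposited log2 values, and P-adj below 0.05.

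Named with full statistics were genes with P-adj below 0.1, with unadjusted p below 0.05 or without overlap between groups, and the 3 with the highest CPM in each role. *Ccl8*, *Ccl7*, *Ccl2*, *Ccl24*, *Stat2* and *Irf9* were added after their values were seen, and the others have shorter statistics. Of the 58 genes that the symbol rule gives, 1 is not reported here, and neither is 1 gene of the inducer list, so no count of members or inducers includes them. The members, the lists and this rule were chosen with earlier results of these data known. Exon lengths are unions of GENCODE M21 exons on GRCm38, and promoters are RefSeq windows on GRCm38.p6. Neither is the build of the counts.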

Additional observations from a re-analysis of the deposited data

Results flagged for a closer look

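A gap test for a single library that stands apart from its group was run on log2 CPM of the 35 tested genes at each temperature, 70 groups in all, and 2 groups met it. *Ccl2* in replicate 5 at 29°C stood at 1.49 CPM, where the other libraries of that group lay between 2.86 and 4.21 CPM. The gap to its nearest neighbour was 0.629 of the group's range on the log2 scale. *Cxcr5* in replicate 4 at 22°C stood at 5.41 CPM, where the others lay between 2.39 and 2.89 CPM, a gap of 0.762 of the range. At the 95% critical values used, chance gives such a gap in about 1 in 20 groups, more than were found here. Without replicate 5 at 29°C the log2 fold change of *Ccl2* was −0.52 (P-adj = 0.209, edgeR) in place of −0.37.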

How the results depend on the processing

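None of the alternatives, DESeq2 and the 13 fits that each left out 1 library included, called any of the chemokine genes described. Over all alternatives 12 of the 35 tested genes kept their direction, and 23 turned in at least 1. Among the 12 were *Cxcl11*, *Ccl7* and *Ccl2*, all negative, and *Ccl24* and *Ccl28*, both positive. No gene turned with DESeq2 size factors, the other filters or the robust fit.

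Log2 fold changes turned most often where library totals entered. With the library-total cluster as a covariate they were *Ackr1* 0.17, *Ccl19* 0.31, *Ccl22* 0.12, *Ccl25* 0.050, *Ccl5* −0.093, *Ccl6* 0.22, *Ccl9* 0.086, *Ccr1* 0.26, *Ccr10* 0.079, *Ccr2* 0.0084, *Cx3cl1* 0.25, *Cxcl12* 0.068, *Cxcl14* −0.099, *Cxcr4* −0.22, *Cxcr5* −0.075 and *Cxcr6* −0.16. Within the 8 higher-total libraries they were *Ackr1* 0.16, *Ccl19* 0.29, *Ccl22* 0.11, *Ccl25* 0.044, *Ccl5* −0.11, *Ccl6* 0.21, *Ccl9* 0.076, *Ccr1* 0.25, *Ccr10* 0.070, *Cx3cl1* 0.24, *Cxcl12* 0.061, *Cxcl14* −0.11, *Cxcr4* −0.23, *Cxcr5* −0.081 and *Cxcr6* −0.17. With the muscle score as a covariate they were *Ccl19* 0.0036, *Cxcl10* 0.024, *Cxcr3* −0.062 and *Cxcr5* −0.069, with the macrophage score *Ccl27a* −0.0002, *Ccl6* 0.16, *Ccl8* 0.044 and *Ccl9* 0.045, with the lymphocyte score *Cx3cl1* 0.025, *Cxcr3* −0.18 and *Cxcr5* −0.11, and with limma on the deposited log2 values *Ackr3* −0.0094. The cause was not tested. Leaving out each library in turn gave ranges across 0 for *Ackr3* −0.11 to 0.12, *Ccl19* −0.40 to 0.036, *Ccl22* −0.41 to 0.043, *Ccl27a* −0.0058 to 0.13, *Ccl6* −0.18 to 0.082, *Ccl8* −0.70 to 0.015, *Cx3cl1* −0.16 to 0.036, *Cxcl1* −0.33 to 0.13, *Cxcl10* −0.25 to 0.014, *Cxcl9* −0.18 to 0.0075, *Cxcr3* −0.091 to 0.19, *Cxcr4* −0.022 to 0.12 and *Cxcr5* −0.076 to 0.45.

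Replicate numbers are shared between the temperatures, but libraries with the same number deviated together with correlations of 0.512, 0.411, 0.351, 0.482, 0.049 and 0.391 for numbers 1 to 6, and replicates 1, 2, 4 and 6 at 22°C were closest to their own number at 29°C while 3 and 5 were closest to 6 and 4. As number 5 stayed under 0.1 and the labels name no shared source, the numbers were not taken as pairs. With the replicate block 0 chemokine genes were called, 4 had an unadjusted p below 0.05 (*Cxcl12* 0.0171, *Cxcl11* 0.0309, *Cxcr6* 0.0424 and *Ccl5* 0.0439), and the log2 fold changes of *Ackr3* −0.089, *Cxcl9* 0.040 and *Cxcr3* −0.028 turned. Calls over all genes numbered 214 with the block, 345 without it, 1676 with DESeq2, 42 with no filter on low counts, 45 with the muscle score, 82 with the lymphocyte score, 222 with the macrophage score, 4 with the library-total cluster as a covariate, 8 within the higher-total libraries, and 32 to 652 with 1 library left out.

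The 22 genes that did not pass the filter had at most 31 counts in any library. Among the 35 tested, 30 had 95% intervals inside a 2-fold change either way, as did 15207 of all 17779 genes tested. *Ccl8*, with up to 2412 counts in a library, had an interval of 0.319 to 1.53 of the level at 29°C.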
